A study of Mus musculus with 12 samples.

Results

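Hearts of mdx mice, which lack dystrophin, were compared with wild-type control hearts at the age of 10.5 months. The comparison covers the 6 arrays whose sample titles name that age, 3 control and 3 mdx, out of 12 arrays in the study. The other 6 hold control and mdx hearts at 8 weeks and serve here as the younger comparison. Total RNA of cardiac muscle was hybridised to Affymetrix MOE430A arrays, which read each gene through 1 or more probe sets. The source and the titles name heart, while a keyword in the sample records names the muscles that move the eye. Genotype and age are the stated differences between the groups. Strain, sex, the number of animals behind each array, any pooling, the heart chambers taken and the hour of collection are not given in the sources used here. The p-values below therefore measure the spread between these arrays, which may be partly technical.

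Dystrophin links the actin cytoskeleton of a muscle fibre, through a complex of membrane proteins, to laminin in the surrounding matrix. Without it the membrane of the cardiomyocyte is easily damaged under load, and the heart of the mdx mouse develops fibrosis and a slowly advancing cardiomyopathy with age. The Dmd allele of this mouse carries a premature stop, and probe sets for Dmd read the amount of transcript, not the mutation.

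Signals below are scaled array signals (each array brought to a trimmed mean of 500), and differences are mdx minus control on the scale of log2(signal + 32), with the standard error of the fit. A gene was called changed at an adjusted p below 0.05, from limma fitted to all 12 arrays with Benjamini-Hochberg adjustment over 14932 probe sets. Each gene is given by its brightest tested probe set, which left 8850 genes. The control arrays correlated with each other at 0.975 to 0.982 and the mdx arrays at 0.964 to 0.978 over log2 signals. On the mdx array of replicate 3 the 99th percentile of the deposited signal was 40770, against 27909 to 32810 on the other 5, and the ratio of 3′ to 5′ actin probes was 1.44 against at most 1.234. The ventricular light chain gene Myl2 was bright on all 6 arrays (21600 to 37300). Myh4, a myosin heavy chain gene of fast skeletal and extraocular muscle, read 1.37 to 15.5, and Myh2 of the same list 21.0 to 181. Of 13 listed fast skeletal genes on the array 3 were tested, Ckm (18200 to 27200), Atp2a1 (211 to 334) and Myl1. Myl1 read 2970, 2840 and 2120 in controls against 3240, 3950 and 3740 in mdx hearts. The Y-linked gene Eif2s3y read 371 to 478.

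Atrial transcripts differed among the control arrays before any genotype was compared. Myl7, the atrial regulatory light chain, read 3554, 2216 and 131 on control replicates 1, 2 and 3 and 270, 151 and 284 on the mdx arrays. The essential light chain Myl4 read 3694, 2489 and 231 in controls against 424, 233 and 632 in mdx hearts. Control replicates 1 and 2 were thus far above the other 4 arrays for both light chains, and control replicate 3 lay below every mdx array. Sln, which encodes the atrial calcium pump regulator sarcolipin, read 2242, 1220 and 9.13 in controls against 25.5, 11.8 and 91.6 in mdx hearts. Bmp10, a growth factor of the right atrium, read 673, 373 and 61.7 against 227, 143 and 133. Dkk3 had the same pattern, with 404, 302 and 70.2 in controls against 124, 100 and 83.7.

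**Figure D1:**
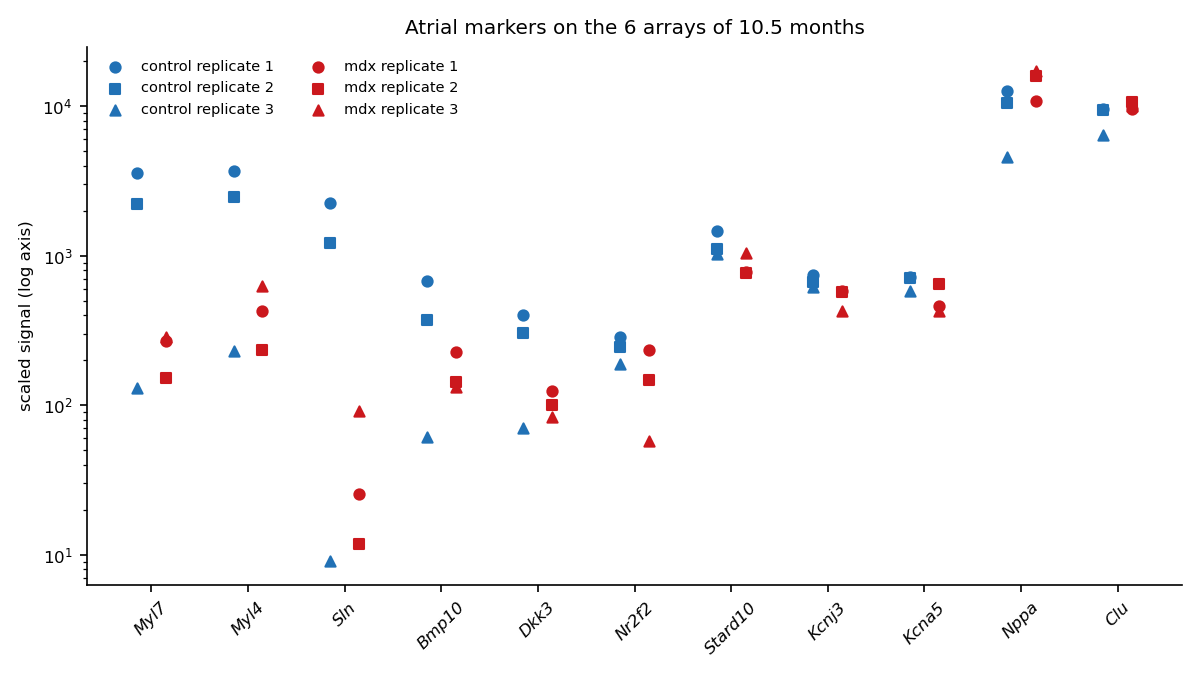
Scaled signal (log axis) of 11 atrial markers on each array of 10.5 months, with blue for control, red for mdx and 1 symbol per replicate. For Myl7, Myl4, Sln, Bmp10 and Dkk3 control replicates 1 and 2 stand above the other 4 arrays, while Nppa and Clu do not show that order.

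The mean log2 level of Myl7, Myl4, Sln, Bmp10 and Nr2f2 was 10.52, 9.90 and 7.02 on the control arrays and 7.80, 7.19 and 7.70 on the mdx arrays. Of 14 listed atrial markers on the array 13 were tested, 10 of them with a negative difference, and none was called. The list's summed signal, which Nppa and Clu dominate, ran from 14444 to 36395 in controls and from 24062 to 30848 in mdx hearts. Gja5, the atrial and conduction connexin gene, was dim on every array (4.66 to 7.90). The fitted differences of Myl7 (-2.08 ± 0.81), Myl4 (-1.65 ± 0.72), Sln (-2.85 ± 1.03), Bmp10 (-0.61 ± 0.58) and Dkk3 (-0.88 ± 0.42) turned to 0.67, 0.72, 0.72, 1.06 and 0.39 once both bright controls were left out. The other atrial markers were Nr2f2 (-0.73 ± 0.38), Kcnj3 (-0.35 ± 0.16), Kcna5 (-0.38 ± 0.19), Stard10 (-0.45 ± 0.17) and Clu (0.27 ± 0.21), with Tbx5 at 0.09 ± 0.64 and Adm at -0.01 ± 0.19. Without control replicate 3, in contrast, Myl7 (-3.45), Myl4 (-2.83) and Sln (-4.64) passed the test (adjusted p = 0.00168, 0.0216 and 0.000455). Several of the values below were also fitted with the atrial score as a covariate, or without both of these control arrays. In these bulk samples fewer cells of a type and less RNA per cell cannot be told apart.

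Older mdx hearts had few genes past the test. Dmd, the PAR bZIP transcription factor genes Dbp and Tef and the antiproliferative gene Tob2 fell, and the matricellular gene Ccn2 and the cardiac and neural gene Ndrg4 rose. These were 6 of 8850 genes (0.0678% called, 0.0226% higher and 0.0452% lower), or 7 of 14932 probe sets (0.0469%), since Dmd was called through both of its tested probe sets. At an unadjusted p below 0.05 there were 1100 probe sets (7.37%). The 3 mdx values all lay above the 3 control values in 701 genes (7.92%) and all below them in 956 genes (10.8%). Of all genes tested 4083 had a positive difference and the median was -0.02.

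**Figure D2:**
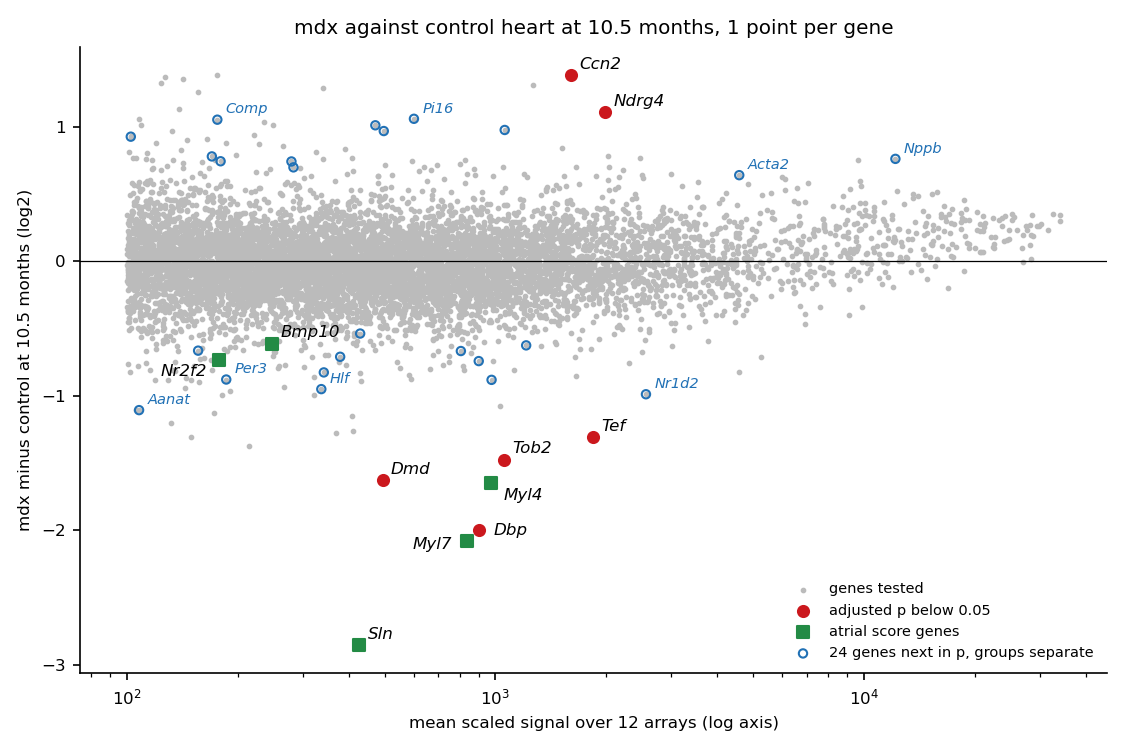
Difference between mdx and control hearts at 10.5 months (log2) against the mean scaled signal over 12 arrays (log axis), with 1 point for each of 8850 genes. Red points are the 6 called genes, green squares the genes of the atrial score, and blue rings the 24 genes next in p, 12 in each direction, whose groups did not overlap. Myl7, Myl4 and Sln lie as low as the called genes without passing the test.

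Dmd read 839, 839 and 796 on the control arrays and 264, 286 and 195 on the mdx arrays, a fall of 1.63 ± 0.20 (adjusted p = 0.0120). The groups lay far apart, and the second tested probe set fell by 1.88 (adjusted p = 0.00221). Its partners showed no shift of that size. In the list of 22 genes of the dystrophin complex, 16 were tested, 11 had negative and 5 positive values, the median was -0.10, and no member but Dmd was called. Without mdx replicate 3 the median was 0.04, with 9 of the 16 positive. Utrn, which encodes the dystrophin homologue utrophin, read 1065, 1052 and 978 in controls against 968, 814 and 684 in mdx hearts (-0.33 ± 0.16, adjusted p = 0.677). Dtna, for the complex member dystrobrevin alpha, was at 0.39 ± 0.20 (adjusted p = 0.695) through its brightest probe set and at -0.25, -0.07 and -0.34 through the 3 others. Cav3, for muscle caveolin, was at 0.39 ± 0.18 (adjusted p = 0.674), and at 0.20 without mdx replicate 3. Among 18 integrin and costamere genes, which anchor the sarcomere to the membrane by a parallel route, 12 were negative with a median of -0.11. The groups did not overlap in 5 lower and 2 higher of the 18, against 10.8% and 7.92% of all genes, and mdx replicate 3 was the lowest array in 4 of the 5. Plec, which encodes the linker plectin, was at -0.63 ± 0.20 (adjusted p = 0.576), and the junction protein gene Jup, for plakoglobin, at -0.44 ± 0.15 (adjusted p = 0.594). Tln1, for the integrin adaptor talin, was at -0.46 ± 0.19 (adjusted p = 0.666), though its second probe set gave 0.58.

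Ccn2 encodes connective tissue growth factor, a secreted matricellular protein induced by TGF-beta and by stretch. It read 1199, 1004 and 1003 in control hearts and 2847, 2855 and 2780 in mdx hearts. Every mdx array was at more than 2 times every control array, and Ccn2 rose by 1.38 ± 0.18 (adjusted p = 0.0121). Without both atrial-rich controls the difference was 1.47, and with the atrial score as a covariate 1.50, in fits that called no gene. Ndrg4, a gene of the NDRG family expressed mainly in heart and brain, read 902, 783 and 787 in controls against 1840, 1977 and 1627 in mdx hearts, a rise of 1.11 ± 0.14 (adjusted p = 0.0121). Its second probe set gave 0.54 (adjusted p = 0.587). The other NDRG genes were at -0.28 (Ndrg1), -0.05 (Ndrg2) and 0.08 (Ndrg3), with adjusted p of 0.789, 0.980 and 0.972.

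Tob2 belongs to the Tob and Btg family, whose proteins restrain proliferation and recruit the enzymes that shorten poly(A) tails. It read 1726, 1464 and 1527 in controls against 641, 477 and 525 in mdx hearts and fell by 1.47 ± 0.19 (adjusted p = 0.0121). Its 3 other tested probe sets were all negative but smaller (-1.15, -0.74 and -0.27), and none passed. The mean over its probe sets was -0.91. Tob1 was at -0.16, Btg2 at -0.17 and Btg1 at 0.13, with adjusted p between 0.829 and 0.890.

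**Figure D3:**
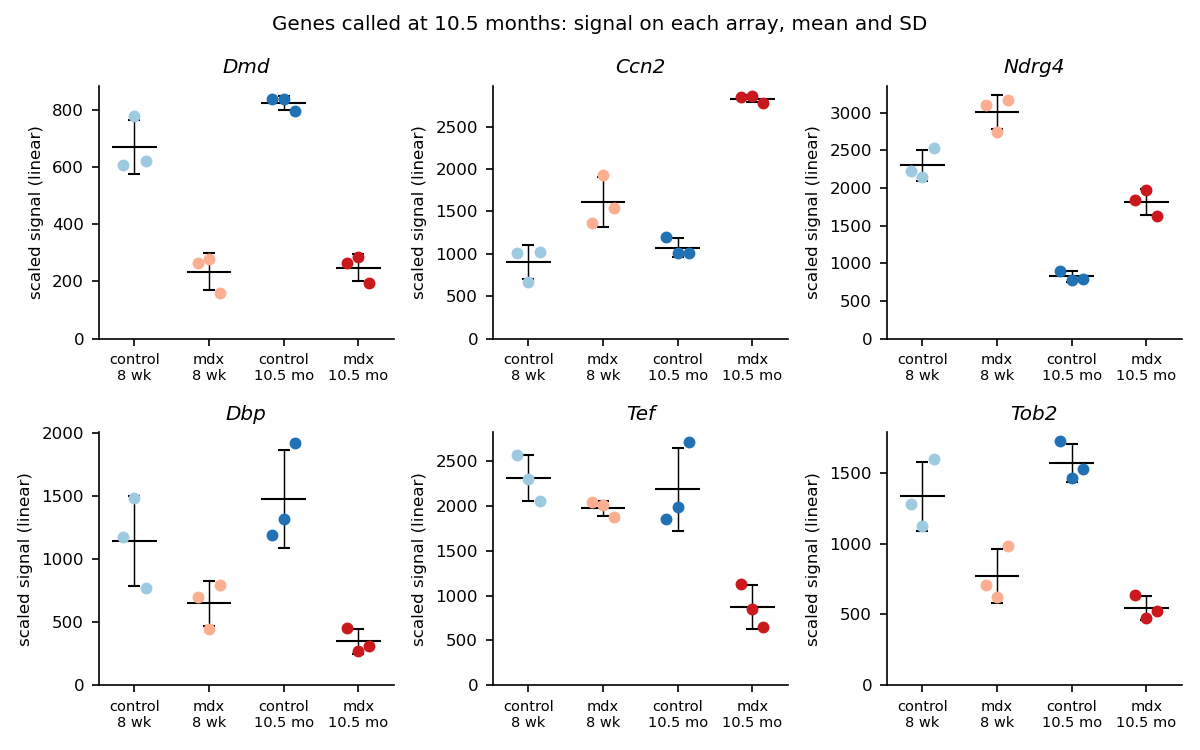
Scaled signal (linear axes from 0) of the 6 called genes on all 12 arrays, by group. Points are arrays, the long line is the group mean and the bars its SD (n = 3). At 10.5 months the groups are separate in all 6 panels, with Ccn2 and Ndrg4 higher and Dmd, Dbp, Tef and Tob2 lower in mdx hearts.

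Dbp and Tef are genes of the circadian clock, and several of the genes just short of the threshold belong to it too. Since the hour of collection is not given, genotype and hour cannot be told apart for clock genes. The part of the hour was not tested. In the circadian oscillator the activators Clock and Bmal1 (Arntl) switch on the Per and Cry repressors, the nuclear receptors REV-ERB alpha and beta (Nr1d1 and Nr1d2) and the PAR bZIP factors Dbp, Tef and Hlf. The REV-ERB proteins in turn repress Arntl. The activators bind E-box elements, the PAR bZIP factors bind D-box elements, and ROR and REV-ERB proteins compete for another element. RefSeq promoter windows (GRCm38.p6) matched 16 of 19 listed clock genes on the array. Both strands of the 250 bases before each start were searched for CACGTG (E-box), TTANGTAA (D-box) and TNGGTCA (ROR pattern). N is any base, so TNGGTCA is a loose pattern and a match need not be a ROR element. No matches of different motifs overlapped in these windows. The 4 stretches below come from genes of the 3 arms, with the matching letters in capitals, written on the strand of the gene.
Tef, chr15:81802526-81802571 (+): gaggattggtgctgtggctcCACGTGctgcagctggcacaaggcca
Tef, second start, chr15:81811256-81811301 (+): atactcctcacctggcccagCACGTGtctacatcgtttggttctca
Per3, chr4:151044796-151044890 (-): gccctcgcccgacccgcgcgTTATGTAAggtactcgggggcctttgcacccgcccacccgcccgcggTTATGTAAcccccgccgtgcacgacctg
Arntl, chr7:113207245-113207310 (+): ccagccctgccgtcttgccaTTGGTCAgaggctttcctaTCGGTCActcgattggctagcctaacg

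The 16 genes have 24 windows, so a count of genes below and a share of all windows are different units and are not compared. The E-box letters stood in windows of 4 of the 16 genes (Bhlhe41, Cry1, Per1 and Tef) and in 6.02% of 32851 promoter windows. The D-box letters stood in 1 gene, Per3, which held them at 2 places, and in 2.06% of windows. The loose ROR pattern stood in 5 genes (Arntl, Cry2, Nfil3, Per3 and Tef) and in 9.19% of windows. The 2 Arntl matches shown have T and C at N, and whether ROR or REV-ERB proteins bind them was not tested. A match describes the letters only, and windows without one, such as those of Dbp and Hlf, show nothing about binding.

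Among the output factors, Dbp read 1194, 1322 and 1923 in controls against 457, 267 and 314 in mdx hearts, and fell by 2.00 ± 0.28 (adjusted p = 0.0184). Tef read 1851, 1991 and 2718 in controls against 1126, 850 and 644 in mdx hearts, and fell by 1.31 ± 0.20 (adjusted p = 0.0414). Hlf read 339, 432 and 516 against 242, 185 and 189 and just missed the test (-0.95 ± 0.16, adjusted p = 0.0797). All 3 PAR bZIP genes were thus lower on each mdx array than on any control array, as were 10.8% of all genes. Further probe sets gave -1.67 for Dbp, -1.31 and -0.29 for Tef and -0.75 for Hlf. Nfil3, a repressor that binds the same D-box, overlapped between groups (0.17 ± 0.36, adjusted p = 0.941).

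Tef was the least firm of the calls. It lost its call in 20 of 26 alternative analyses, against 12 for Dbp, while its difference stayed between -1.64 and -0.97. With the atrial score as a covariate the differences of Dbp and Tef were -2.32 and -1.53 (adjusted p = 0.0644 and 0.0706). The adjusted p over the alternatives ran from 0.000863 to 0.252 for Dbp and from 0.00375 to 0.284 for Tef.

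In the core of the clock, Per3 read 221, 255 and 272 in controls against 137, 111 and 114 in mdx hearts (-0.88 ± 0.14, adjusted p = 0.0529). Nr1d2 read 3323, 3119 and 3598 against 2023, 1473 and 1557 (-0.99 ± 0.17, adjusted p = 0.0879), and its second probe set gave -1.05. Nr1d1 read 1215, 914 and 1299 against 790, 599 and 452 (-0.88 ± 0.20, adjusted p = 0.309). In each of these 3 repressors the highest mdx array lay below the lowest control array. Per1, named here after its values were seen, had the largest negative difference of the core list (-1.15, adjusted p = 0.367), with 462, 420 and 474 against 232, 121 and 224. Arntl, the activator whose promoter is shown above, lay on the other side, with 396, 396 and 285 in controls against 623, 644 and 714 in mdx hearts (0.84 ± 0.22, adjusted p = 0.367). Clock itself was at 0.05.

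Of 12 core clock genes tested, 9 were negative and none was called. The groups did not overlap in 4 lower genes and 1 higher gene, against 10.8% and 7.92% of all genes. The list's median of -0.45 became -0.27 without mdx replicate 3 and -0.60 with the atrial score as a covariate. The median of the 4 output genes was -1.13, and -1.01 and -1.34 in the same fits. At 8 weeks the medians of the core and output lists were 0.05 and -0.22. The 13 genes of cardiac metabolism linked to the clock had a median of -0.22, and of -0.11 without mdx replicate 2. Among them the deubiquitinase gene Usp2 read 2083, 1923 and 2140 against 1344, 1000 and 1036 (-0.86 ± 0.21, adjusted p = 0.367), with -0.94 from its second probe set. The glucocorticoid-induced gene Tsc22d3 was at -0.53 ± 0.18 (adjusted p = 0.594).

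**Figure D4:**
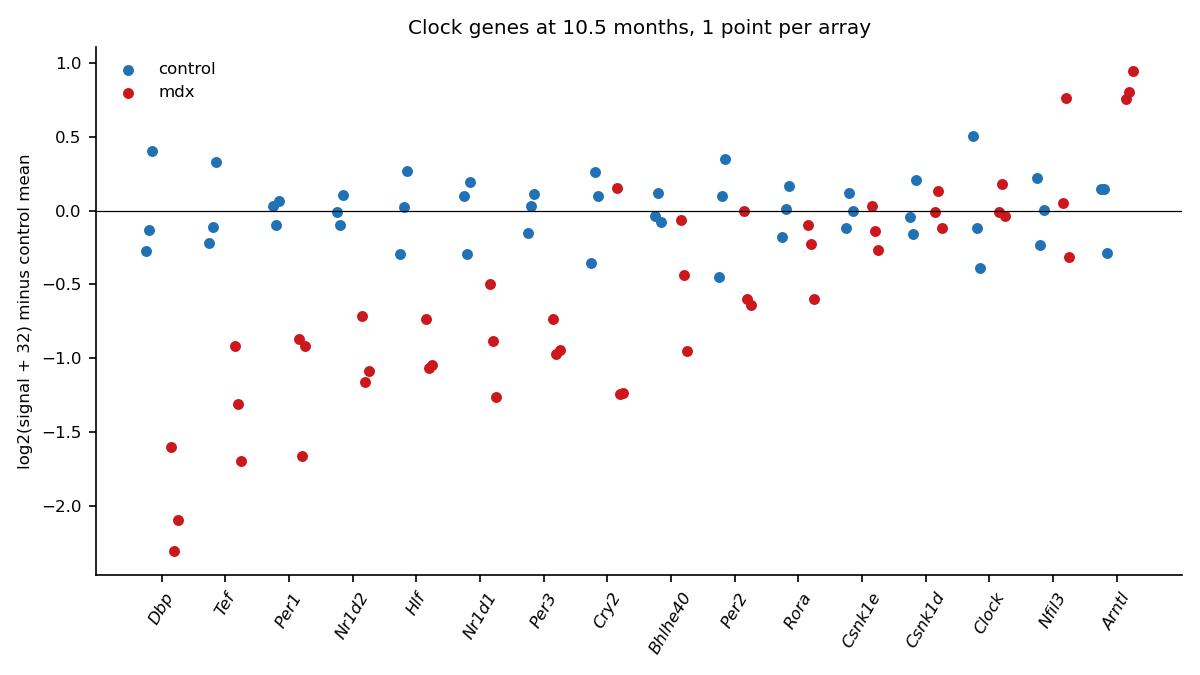
Clock genes on each array of 10.5 months, as log2(signal + 32) minus the mean of the 3 controls, ordered by the difference. Blue points are control and red points mdx arrays. From Dbp to Per3 every mdx array lies below every control array, and Arntl is the only gene here with every mdx array above. The hour of collection is not given for either group.

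The 12 genes next in p on each side were taken from genes that were not called and had separate groups. Outside the clock they include the following. Pi16, a peptidase inhibitor gene of fibroblasts, came nearest on the positive side, with 462, 498 and 413 in controls against 879, 1046 and 1045 in mdx hearts (1.06 ± 0.19, adjusted p = 0.0879). The matrix genes Spon2 (0.74 ± 0.15), Comp (1.05 ± 0.23), Mfap5 (0.98 ± 0.23) and Prg4 (0.97 ± 0.23) had adjusted p of 0.220 to 0.349. Asns, for asparagine synthetase, was at 0.70 ± 0.14, Yars, for tyrosyl-tRNA synthetase, at 1.01 ± 0.22, and Mthfd2, for a mitochondrial folate enzyme, at 0.74 ± 0.17 (adjusted p = 0.187, 0.266 and 0.301). The second probe set of Mthfd2 gave 1.03 (adjusted p = 0.0669). Dio2, for the deiodinase that activates thyroid hormone, was at 0.78 ± 0.15 (adjusted p = 0.187), but its second probe set gave 0.19. Pcbd1, for a pterin dehydratase, was at 0.93 ± 0.20 (adjusted p = 0.266). On the negative side stood Aanat, for an enzyme of melatonin synthesis (106, 135 and 127 against 20.1, 68.2 and 38.7, -1.11 ± 0.21, adjusted p = 0.141). Next were the phosphodiesterase gene Gdpd5 (-0.71 ± 0.15), the mitochondrial stress gene Dele1 (-0.62 ± 0.14), the corepressor gene Rere (-0.74 ± 0.17) and the cofilin kinase gene Tesk1 (-0.83 ± 0.19), with adjusted p of 0.228 to 0.310. Erdr1 (-0.67 ± 0.15), the small Maf gene Mafg (-0.54 ± 0.13) and the lipid remodelling gene Serac1 (-0.66 ± 0.16) followed, with adjusted p of 0.310 to 0.349. The second probe set of Dele1 gave 0.02.

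Most matrix and fibroblast lists held more positive than negative values, and Ccn2 was the only called member of these lists. Of 25 genes of CCN and TGF-beta signalling, 10 were positive and 15 negative, with a median of -0.12 that became -0.03 without mdx replicate 3. Tgfb2, for a TGF-beta ligand, read 189, 144 and 160 in controls against 332, 370 and 280 in mdx hearts (0.87 ± 0.22, adjusted p = 0.367). Ccn5, for a CCN protein that lacks the C-terminal domain of Ccn2, was at 0.57 ± 0.18 (adjusted p = 0.571), and the latent TGF-beta binding protein gene Ltbp1 at -0.47 ± 0.22 (adjusted p = 0.674). The high value of Ccn2 was therefore not shared by its list.

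Proteoglycan and elastic fibre genes were mostly positive. Of 20 proteoglycan and matricellular genes 15 were positive (median 0.22), and the groups did not overlap in 7 higher and 1 lower, beside 7.92% and 10.8% of all genes. Lum, for the proteoglycan lumican, read 1956, 2066 and 1645 against 2528, 3714 and 3687 (0.78 ± 0.19, adjusted p = 0.367). Dpt, for dermatopontin, was at 0.62 ± 0.17 and Thbs4, for thrombospondin 4, at 0.94 ± 0.27 (adjusted p = 0.421 and 0.475). Of 10 elastic fibre genes 8 were positive (median 0.23, and 0.14 without mdx replicate 2). Lox, for the enzyme that crosslinks collagen and elastin, read 243, 215 and 210 against 394, 447 and 406 (0.81 ± 0.21, adjusted p = 0.367), while its second probe set gave -0.04. Eln, for elastin, was at 0.61 ± 0.24, at 0.97 with the atrial score as a covariate, at 1.03 without both atrial-rich controls and at 0.40 without control replicate 3. Collagen genes were divided, with 11 of 19 positive and a median of 0.15. That median was 0.00 without mdx replicate 2, 0.25 without mdx replicate 3, 0.07 without control replicate 3 and 0.01 with the mean of all probe sets of a gene. The groups did not overlap in 5 higher collagen genes and 1 lower one, beside the same 7.92% and 10.8%. Col12a1 was dim and read 68.6, 20.4 and 78.3 against 177, 143 and 242 (1.37 ± 0.37, adjusted p = 0.416), and Col5a2 and Col14a1 were at 0.53 ± 0.24 and 0.42 ± 0.19. Of the main fibrillar chains, taken after their values were seen, Col1a1 and Col1a2 were at 0.15 and 0.18. Col3a1 read 3580, 3400 and 3610 in controls against 3750, 5520 and 5290 in mdx hearts.

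Of 17 matrix protease and inhibitor genes 13 were positive (median 0.13, and 0.22 with the atrial score as a covariate). Timp1, for a metalloproteinase inhibitor, read 224, 213 and 258 against 363, 982 and 629 (1.29 ± 0.42, adjusted p = 0.587), and Timp3 lay on the other side (2060, 2002 and 1810 against 1634, 1123 and 1016, -0.65 ± 0.24, adjusted p = 0.638). Mmp3, for stromelysin, was at 0.46 ± 0.17, and the complement inhibitor gene Serping1 at 0.64 ± 0.18 (adjusted p = 0.428). Fibroblast markers were mostly positive alongside, with 15 of 17 positive, a median of 0.18 (0.30 without both atrial-rich controls) and a summed signal of 39322 to 41802 in controls and 42787 to 53610 in mdx hearts. Col1a1, Col1a2, Col3a1, Dcn, Lum, Dpt and Mfap5 belong both to the fibroblast list and to a matrix list, so these counts share genes. The part of fibroblasts in the matrix values was not tested. The groups did not overlap in 6 higher and 1 lower of the 17 protease genes and in 5 higher and 0 lower of the 17 fibroblast genes. Over all genes the shares were 7.92% and 10.8%. Among these higher genes, mdx replicate 2 was the highest array in 4 of 7 proteoglycan, 4 of 6 protease and 4 of 5 fibroblast genes. Over all genes it was the highest in 176 of the 701 with separate higher groups. Among the 5 higher collagen genes it was the highest in 2, and mdx replicate 3 in the other 3.

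Macrophage, monocyte and complement genes gave mostly positive values, which were smaller without mdx replicate 3 or without control replicate 1. Of 25 macrophage and monocyte genes 22 were positive, with a median of 0.25. That median became 0.15 without mdx replicate 3, 0.17 without control replicate 1 and 0.30 without mdx replicate 2. The groups did not overlap in 2 higher genes and 1 lower gene of the 25, so the higher share was near the 7.92% of all genes. Tyrobp, for an adaptor of myeloid receptors, read 493, 896 and 550 in controls against 607, 1198 and 1689 in mdx hearts (0.75 ± 0.31, adjusted p = 0.666), so the groups overlapped. Ms4a7, a macrophage membrane gene, read 265, 350 and 255 against 292, 636 and 706 (0.76 ± 0.35, adjusted p = 0.674). All 8 complement genes tested were positive, with a median of 0.32. It became 0.12 without mdx replicate 3 and 0.19 without control replicate 1. C1qa, C1qb and C1qc belong to both the complement and the macrophage list, and Serping1 to both the complement and the protease list. C1ra, for a serine protease of the first complement component, read 314, 399 and 320 against 408, 437 and 703 (0.51 ± 0.29, adjusted p = 0.726). Antigen presentation genes were negative in 10 of 12, with a median of -0.18. The lymphocyte list had a median of 0.09 (6 genes), and the granulocyte and mast cell list 0.06 (9 genes). None of these genes was called.

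Cardiac stress genes were split. Nppb, for the B-type natriuretic peptide that ventricles release under load, read 11525, 12335 and 9483 in controls against 15659, 18218 and 23125 in mdx hearts (0.76 ± 0.18, adjusted p = 0.349). Nppa, for the atrial peptide, read 12705, 10540 and 4555 against 10868, 15942 and 17080 (0.76 ± 0.31, adjusted p = 0.666). The groups overlapped for Nppa. Its difference was 1.65 without both atrial-rich controls, 1.37 with the atrial score as a covariate and 0.31 without control replicate 3. After quantile normalization Nppa was at 0.55 and Nppb at 0.56. Rcan1, a calcineurin target and inhibitor, read 1620, 1354 and 1158 against 1924, 2148 and 2370 (0.64 ± 0.17, adjusted p = 0.421). Npr2, for the C-type natriuretic peptide receptor, was at -0.51 ± 0.17 (adjusted p = 0.587). Of the 14 natriuretic and fetal genes tested 8 were positive, with a median of 0.07 that turned to -0.04 after quantile normalization. Stress kinase, calcineurin and adrenergic genes were mostly negative (14 of 17, median -0.23), among them the transcription factor gene Nfatc1 (-0.60 ± 0.19, adjusted p = 0.571). The second probe set of Nfatc1 gave -0.05.

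Ion channel genes were also mostly negative, 9 of 12 with a median of -0.24, which became -0.09 without mdx replicate 3. Kcnd2, for a channel of the transient outward potassium current, read 500, 481 and 459 in controls against 349, 295 and 310 in mdx hearts (-0.55 ± 0.15, adjusted p = 0.421). Kcnh2, for the rapid delayed rectifier, read 915, 815 and 1077 against 764, 556 and 470 (-0.64 ± 0.18, adjusted p = 0.421). Cacna1c, for the L-type calcium channel, was at -0.58 ± 0.22 (adjusted p = 0.665), with its lowest value on mdx replicate 3 (838) and a difference of -0.30 without that array. The groups did not overlap in 3 lower and 1 higher of the 12, beside 10.8% and 7.92% of all genes. Kcnd2 and Kcnh2 were among the lower ones, and neither was called.

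Bright genes had mostly positive differences. The 171 genes with a mean signal of 10000 or more had a median of 0.21, which became 0.11 without mdx replicate 3 and -0.03 after quantile normalization. Genes with a mean signal of 100 to 1000 had a median of -0.03. Of 53 oxidative phosphorylation genes 48 were positive with a median of 0.24, against 0.12 without mdx replicate 3 and -0.00 after quantile normalization. The groups did not overlap in 13 higher and 0 lower of the 53, beside 7.92% and 10.8% of all genes. Mdx replicate 3 was the highest array in all 13. Ndufs4, for a complex I subunit, read 4267, 4672 and 4636 in controls against 4949, 5241 and 7523 in mdx hearts. The 27 cytosolic ribosome genes, 25 positive, had a median of 0.28, against 0.16 without mdx replicate 3 and 0.14 after quantile normalization. Their groups did not overlap in 10 higher and 0 lower members, and mdx replicate 3 was highest in all 10. Rps14, for a small subunit protein, read 7641, 8327 and 7893 against 9603, 9941 and 18318. Mdx replicate 3 was highest in 418 of the 701 genes with separate higher groups (59.6%) and lowest in 598 of the 956 with separate lower groups (62.6%). With the signal range of each array as a covariate the median of the oxidative phosphorylation genes was -0.05, with 15 of 53 positive, and that of the ribosome genes 0.18. The part of the actin ratio of mdx replicate 3 was not tested. Sarcomere genes had a median of 0.19 in the 12-array fit, -0.05 after quantile normalization and -0.14 with the signal range as a covariate, and no direction is drawn for them. Genes of fatty acid use had a median of -0.02 (26 genes) and of glucose use 0.05 (19 genes), and -0.20 and -0.16 after quantile normalization. The fatty acid transporter gene Slc27a1 was at -0.54 ± 0.21 (adjusted p = 0.655) and Acot1, for an acyl-CoA thioesterase, at -0.93 ± 0.34 (adjusted p = 0.640). Acot1 was at -0.50 without control replicate 1, -0.55 without both atrial-rich controls and -0.59 with the atrial score as a covariate.

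Endothelial markers were negative in 14 of 19 genes (median -0.14, and -0.06 without mdx replicate 3). The groups were separate in 7 lower and 1 higher of them, beside 10.8% and 7.92% of all genes, and mdx replicate 3 was the lowest array in 6 of the 7. Vwf, for von Willebrand factor, read 432, 539 and 353 in controls against 350, 305 and 201 in mdx hearts (-0.59 ± 0.21, adjusted p = 0.631). Its difference was -0.31 without both atrial-rich controls, -0.42 with the atrial score as a covariate and -0.38 without mdx replicate 3. Flt1 and Tie1, for receptors of vascular growth, were at -0.44 ± 0.18 and -0.34 ± 0.14 (adjusted p = 0.666 for both). Cldn5, for an endothelial tight junction protein, opposed them, with 425, 459 and 374 against 574, 730 and 896 (0.75 ± 0.22, adjusted p = 0.495). Smooth muscle and pericyte genes had a median of -0.22, which became -0.10 without mdx replicate 3 and -0.12 without control replicate 3. The groups did not overlap in 4 lower and 2 higher of these genes, beside the same 10.8% and 7.92%. Mdx replicate 3 was the lowest array in all 4 lower ones. Acta2, the smooth muscle actin gene, read 3044, 2804 and 3173 against 5026, 4661 and 4430 (0.64 ± 0.14, adjusted p = 0.287). The smooth muscle gene Tagln, taken after its values were seen, lay on the same side, with 334, 361 and 349 against 454, 402 and 361. The contractile genes Myh11 (-0.67 ± 0.32) and Smtn (-0.40 ± 0.16) and the pericyte proteoglycan gene Cspg4 (-0.38 ± 0.18) lay below 0. Of the 12 genes tested 4 were positive and 8 negative.

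**Figure D5:**
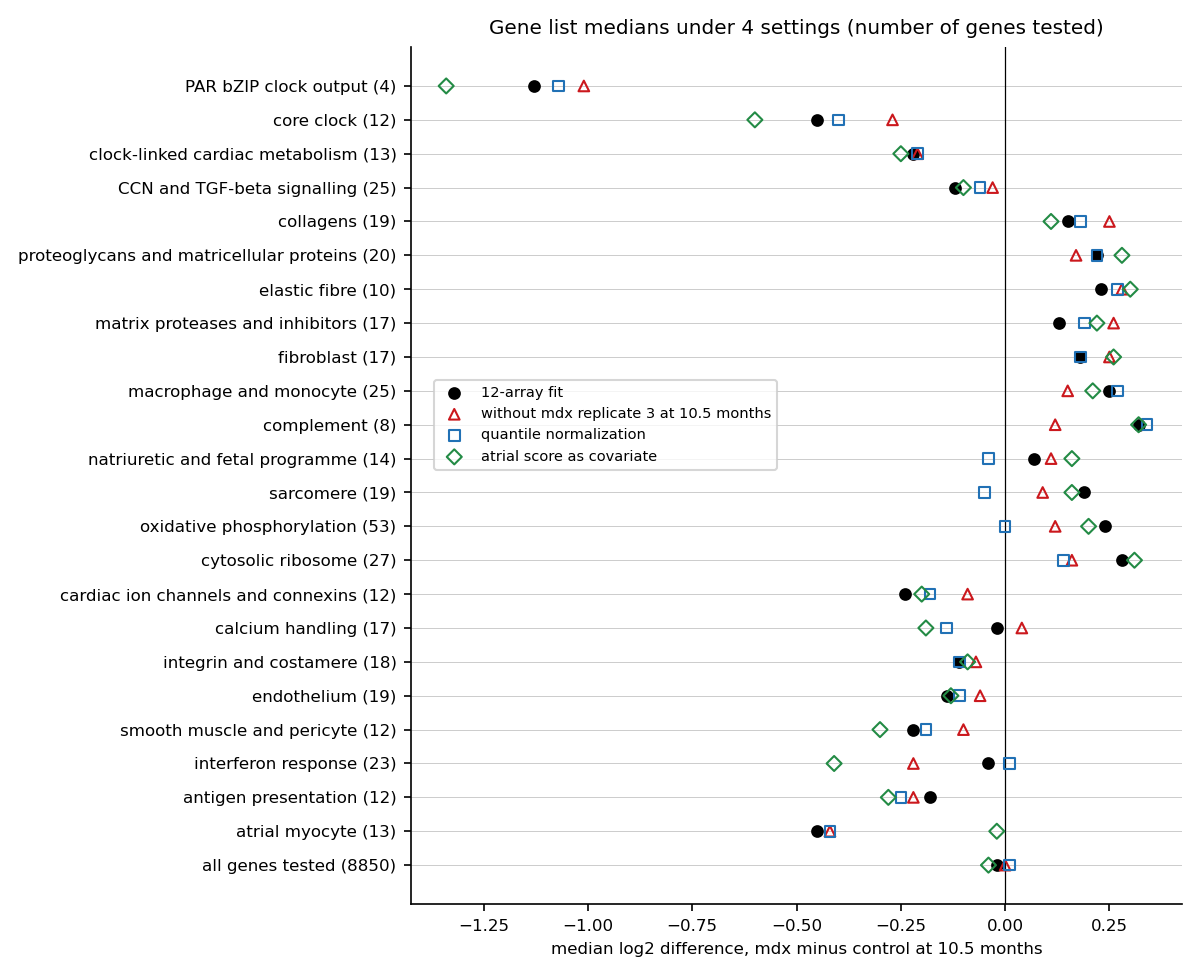
Median difference (log2, mdx minus control at 10.5 months) of 23 gene lists and of all genes, with the number of genes tested in brackets. Black points are the 12-array fit and open symbols 3 alternatives. The clock lists stay below -0.2 and the fibroblast list above 0.1 in all 4, and oxidative phosphorylation goes from 0.24 to -0.00 after quantile normalization. The atrial median goes from -0.45 to -0.02 with the atrial score as a covariate. That score is made from members of the atrial list (Myl7, Myl4, Sln, Bmp10 and Nr2f2), so such a move was built in.

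More probe sets were called in the younger hearts, 343 at 8 weeks (2.30%). Over the 14932 probe sets the differences at both ages, which share no array, correlated at 0.065, where genes are not independent replicates. Within the older comparison, on the same arrays, the 2 brightest probe sets of a gene correlated at only 0.474 (3206 genes). Replicates spread less in older hearts, with a median SD of log2 signal of 0.147 (control) and 0.193 (mdx), than in younger ones (0.202 and 0.250). Of the 6 genes called in older hearts, Dmd (-1.42, adjusted p = 0.00596) and Ccn2 (0.83, adjusted p = 0.0392) were called at 8 weeks too. Tob2 (-0.78), Dbp (-0.78), Ndrg4 (0.38) and Tef (-0.22) were not, with adjusted p of 0.0525, 0.170, 0.182 and 0.614. The change of the mdx effect with age was not called for any of the 6 (adjusted p between 0.162 and 0.824).

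That test called 23 probe sets (0.154%), and 14 genes through their brightest probe set (0.158%). Acta2 was one of them. It fell at 8 weeks (-0.80, adjusted p = 0.0184) and had a positive value at 10.5 months, so the effects differed by 1.44 (adjusted p = 0.0196). The interferon-inducible GTPase genes Iigp1 and Igtp, which defend cells against intracellular pathogens, went the other way. Iigp1 rose at 8 weeks (1.65) and read 2004, 3489 and 2738 in older controls against 1654, 1459 and 1768 in older mdx hearts (-0.71 ± 0.24, adjusted p = 0.587). Igtp rose by 1.23 at 8 weeks and was at -0.76 ± 0.24 at 10.5 months, and both effects differed between the ages (adjusted p = 0.0196 and 0.0427). The value of Igtp at 10.5 months was -1.13 with the atrial score as a covariate and -1.19 without both atrial-rich controls. Irgm2, for another GTPase of the family, was at 1.45 and -0.74, a difference that missed the test (adjusted p = 0.0662). The interferon response list had a median of -0.04 at 10.5 months and 0.49 at 8 weeks, with -0.41 at 10.5 months when the atrial score was a covariate and 0.01 after quantile normalization. Aanat also differed between the ages, with 0.94 at 8 weeks (adjusted p = 0.0393) and -1.11 at 10.5 months. Leaving out control replicate 1 or 2 of 10.5 months gave 13 or 1 called probe sets, and leaving out mdx replicate 1, 2 or 3 of that age gave 4, 2 or 10. With control replicate 1 of 8 weeks left out there were 10, and with control replicate 3 of 8 weeks left out limma called 0 (1535 at an unadjusted p below 0.05).

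These counts depend on single arrays. Without control replicate 1 or 2 of 10.5 months 1 probe set was called, without mdx replicate 2 or 3 of that age 2 were, and without mdx replicate 3 of 8 weeks, which enters only the estimate of spread, 12 were. Without control replicate 3 of 10.5 months 7 were called, of which 3 were among the 7 of the full fit. With the atrial score as a covariate limma called 0 probe sets, with 878 at an unadjusted p below 0.05, and without both atrial-rich controls 0, with 681. In that last fit 1 control array is left, and it is assumed to vary as the other groups do. The differences themselves moved less. In the 2 fits Dmd was at -1.59 and -1.58, Ccn2 at 1.50 and 1.47, Ndrg4 at 1.14 and 1.17, Dbp at -2.32 and -2.40, Tef at -1.53 and -1.64 and Tob2 at -1.43 and -1.44. The adjusted p of these 6 genes were 0.0644 to 0.123 in the first fit and 0.252 to 0.493 in the second, and over all 26 alternatives the lowest was 1.14e-05 (Dmd) and the highest 0.493 (Tob2).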

How the data were processed

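The authors deposited 1 linear intensity per probe set and array (22690 probe sets), already scaled alike, with trimmed means of 1500.6 to 1500.9. Per the labels the protocol was Affymetrix's standard one, and the software that summarised the probes is not given in the sources used here. Groups came from the sample titles. Arrays were brought to a trimmed mean of 500 (2% off each end) and log2(signal + 32) was taken, which shrinks differences of dim genes. After removal of 64 Affymetrix controls, a mean signal of at least 100 was required. Of all probe sets 20393 matched 1 gene in the platform annotation, 691 several (not named) and 1606 none. Limma 3.58.1 in R 4.3.3 fitted 4 group means to 12 arrays (8 residual and 5.20 prior degrees of freedom) after the script was tested on simulated data. The 3 arrays per group limit precision.

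Genes named are those called, the 12 next in p in each direction with separate groups, Utrn, all tested atrial markers and up to 4 members of each list described. Members, lists and alternatives were chosen with earlier results of these data known. Alternatives changed scaling, offset, filter, variance model, covariates, probe sets and arrays.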

Additional observations from a re-analysis of the deposited data

Results flagged for a closer look

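For 14 genes the effect of mdx on the log2 scale differed between 10.5 months and 8 weeks by limma's test of that difference (adjusted p between 0.0196 and 0.0479 over all probe sets). It was more positive at 10.5 months for Mpg, for a DNA repair glycosylase (by 1.50), Acta2 (1.44), P2ry1, for an ADP receptor (1.77), Ints3, for an Integrator subunit (1.47), Tpd52l1 (1.83) and Nbeal2 (1.29). The difference was negative for Iigp1 (-2.37), Igtp (-1.99), Aanat (-2.04), the homeobox gene Six3 (-1.64), Fam151a (-1.31), the splicing factor gene Prpf40b (-2.76), the tight junction gene Tjp3 (-1.47) and Gdpd5 (-1.20). None of the 14 was called within the older hearts. Mpg (0.12), Fam151a (-0.12), P2ry1 (-0.22), Ints3 (0.06) and Nbeal2 (-0.25) were close to 0 there and were called at 8 weeks. Six3 was at -0.65, Prpf40b at -1.13, Tjp3 at -0.50 and Tpd52l1 at 0.48 in older hearts. All 23 called probe sets lost the call without control replicate 3 of 8 weeks, where limma called 0 probe sets with 1535 at an unadjusted p below 0.05.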

How the results depend on the processing

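At 10.5 months 7 probe sets were called. The count was 3 with a replicate block, 110 with array weights, 11 with an intensity trend and robust variances, 0 with the atrial score as a covariate, 0 without control replicates 1 and 2 together and 0 with the atrial score on the older arrays alone, an alternative chosen after seeing the data (1342 at an unadjusted p below 0.05). Leaving out 1 array gave 1 to 12. For the difference between ages (23 called), the count was 15 with an offset of 64, 10 with a filter at 300, 0 with a replicate block (1735 at an unadjusted p below 0.05), 141 with array weights, 4 with the atrial score, 4 without control replicates 1 and 2, and 0 to 31 without 1 array. Same-numbered arrays did not deviate together (correlations of 0.025, -0.089 and -0.068 at 10.5 months), so the numbers were not taken to pair arrays.

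Of 2853 gene values under alternatives, 27 turned sign, 65 lost the call and 47 gained it, 34 of these with array weights. Pi16, Hlf and Nr1d2 passed with a filter at 300 (adjusted p = 0.0345, 0.0318 and 0.0345) and with the intensity trend (0.0357, 0.0481 and 0.0298), and Per3 with an offset of 16 (0.0458). Without control replicates 1 and 2 the turned values were Myl7 0.67, Myl4 0.72, Sln 0.72, Bmp10 1.06, Dkk3 0.39, Mpg -0.03 and Ndrg3 -0.49. With the atrial score they were Myl4 0.15, Bmp10 0.57, Dkk3 0.02 and Ndrg3 -0.30, and on the older arrays alone 0.13, 0.64, 0.04 and -0.37. Myl4 and Bmp10 are themselves part of that score. With the mean of all probe sets Dtna was at -0.07, Tln1 at 0.06, Btg1 at -0.07 and Ndrg3 at -0.09. Ndrg3 was at -0.03 with the signal range as a covariate. Leaving out 1 array gave Ndrg3 -0.15 to 0.36, Bmp10 -1.45 to 0.01, Nfil3 -0.13 to 0.41 and Ints3 -0.05 to 0.22. The cause of these changes was not tested. Of 1245 list medians 131 moved by more than the spread between replicates. Signal near background limits dim genes.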
